A study of Mus musculus with 4 samples.

Results

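The NF-kB subunits and the feedback inhibitors of the pathway are described here in vessel cells of mice with and without a human TNF transgene. The members are 10 named genes matched by symbol in the deposited gene lists: Nfkb1, Nfkb2, Rela, Relb, Nfkbia, Nfkbie, Nfkbiz, Tnfaip3, Tnip1 and Birc3. All 10 were found among the 30406 genes that all 4 libraries list. The question was whether chronic TNF leaves an NF-kB mark in the stromal cells and in the leukocytes of the vessels.

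Popliteal lymphatic vessels (PLVs, the collecting lymphatics that drain the ankle) and the adjacent superficial saphenous vein (SSV) were dissociated together, and each single-cell RNA-seq library was made from 3 pooled mice on a C57BL6 background (C57BL/6J in the study's methods). The tdT1 and tdT2 libraries hold sorted tdTomato+ cells of male and female Cspg4-Cre;Ai9-tdTomato mice without the TNF transgene. In these mice Cre is driven from Cspg4, a gene of mural and other mesenchymal cells. Male mice of 9 months gave the WT and TNF-Tg libraries, for which live events of high forward/side scatter were sorted with no reporter. After tdT1 the study changed its protocol: a wider sort nozzle, serum-coated collection tubes, no viability measurement before sequencing and another sequencer were used for tdT2, WT and TNF-Tg. TNF-Tg mice carry a human TNF transgene and develop chronic inflammatory-erosive arthritis. The transgene is human and the counts are of mouse genes, so it could not be checked in the counts. Mice were pooled, and WT and TNF-Tg were 1 library each. Differences between them therefore have no replicate check, are given with no p-value, and cannot be told apart from differences in sort, day of preparation or sequencing. Their 95% intervals are exact and cover counting error only.

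NF-kB is a family of dimeric transcription factors that carry the signal of TNF, of interleukin receptors and of microbial sensors to the nucleus. Nfkb1 and Rela encode the subunits of the canonical dimer, and Nfkb2 and Relb those of the non-canonical dimer. Nfkbia and Nfkbie encode inhibitors that hold the dimers in the cytoplasm until they are phosphorylated and degraded, and Nfkbiz encodes a nuclear cofactor of the same ankyrin-repeat family. Tnfaip3 encodes a ubiquitin-editing enzyme that shuts off signalling, Tnip1 an adaptor that binds it, and Birc3 a ubiquitin ligase of the TNF receptor complex. Several of these genes are themselves NF-kB targets, which closes a negative feedback loop, and their transcripts are widely used as a readout of recent signalling.

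In GRCm38, Nfkb1 lies at chr3:135584655-135691547 on the minus strand, Nfkb2 at chr19:46304320-46312385 on the plus strand, Rela at chr19:5637483-5648130 on the plus strand and Relb at chr7:19606217-19629438 on the minus strand. The inhibitor genes Nfkbia (chr12:55489410-55492647, minus strand), Nfkbie (chr17:45555703-45563169, plus strand) and Nfkbiz (chr16:55811375-55838899, minus strand) lie on separate chromosomes. Tnfaip3 lies at chr10:19000910-19015657, Tnip1 at chr11:54910785-54962917 and Birc3 at chr9:7848699-7873186, all on the minus strand.

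The promoters of 4 members that carry differences described below are shown. Not every member with such differences is included: Birc3 and Tnip1 were left out, and Nfkb1, Relb and Nfkbiz had no entry in the promoter table. Nfkb2 and Nfkbie were higher in the TNF-Tg stroma. Nfkbia was at least 1.5-fold above WT in TNF-Tg neutrophil-like and inflammatory monocyte-like cells and at least 1.5-fold below it in Lyve1-low macrophage-like cells alone. Tnfaip3 was at least 1.5-fold above WT in neutrophil-like cells alone. It was at least 1.5-fold below WT in Lyve1+ and Lyve1-low macrophage-like and Cd209a+ dendritic-like cells. Each run is the 250 bases before a RefSeq start site in GRCm38.p6, read 5′ to 3′ along the gene, and capitals mark matches to the classical NF-kB consensus of 10 bases, searched on both strands with overlapping matches merged. The coordinates are chr19:46304487-46304736 (plus strand) for Nfkb2, chr17:45555450-45555699 (plus strand) for Nfkbie, chr12:55492648-55492897 (minus strand) for Nfkbia and chr10:19015411-19015660 (minus strand) for Tnfaip3.
Nfkb2: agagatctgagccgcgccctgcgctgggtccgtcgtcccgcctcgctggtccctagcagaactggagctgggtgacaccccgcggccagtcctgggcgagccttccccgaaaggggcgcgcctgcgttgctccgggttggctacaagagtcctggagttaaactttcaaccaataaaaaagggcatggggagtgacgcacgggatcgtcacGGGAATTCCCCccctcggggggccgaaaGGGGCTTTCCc
Nfkbie: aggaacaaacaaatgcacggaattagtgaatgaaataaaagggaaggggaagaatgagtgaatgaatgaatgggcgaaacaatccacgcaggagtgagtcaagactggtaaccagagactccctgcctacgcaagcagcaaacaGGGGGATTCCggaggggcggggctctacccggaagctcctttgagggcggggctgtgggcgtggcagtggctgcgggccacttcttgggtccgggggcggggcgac
Nfkbia: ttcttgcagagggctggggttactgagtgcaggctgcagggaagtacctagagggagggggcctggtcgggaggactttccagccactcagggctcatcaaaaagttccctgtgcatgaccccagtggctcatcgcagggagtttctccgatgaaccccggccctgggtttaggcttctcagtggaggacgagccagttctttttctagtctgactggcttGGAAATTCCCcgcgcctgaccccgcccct
Tnfaip3: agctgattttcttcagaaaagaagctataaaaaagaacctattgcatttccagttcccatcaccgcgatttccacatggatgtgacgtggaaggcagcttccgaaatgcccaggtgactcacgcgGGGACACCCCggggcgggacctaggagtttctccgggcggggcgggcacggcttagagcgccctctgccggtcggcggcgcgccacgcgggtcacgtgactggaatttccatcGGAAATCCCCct

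The Nfkb2 window held 3 matches, which began 39 to 11 bases before the start site. The Nfkbia match began 29 bases before the start site and the Nfkbie match 106 bases before it. The Tnfaip3 matches began 125 and 12 bases before the start site. Of the 10 members, 7 had an entry in the promoter table and 5 of these held at least 1 match in the 300 bases from 250 before to 50 after a start site. The members shown are all among these 5. Birc3, Rela and Tnip1 also had an entry and are not shown. Over the table, 4.51% of 32851 such windows held a match, or 5.14% of 27025 genes with any of their windows counted. A match is a string of letters in this window and was not tested as a binding site.

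The 4 libraries held 454 to 5488 cells and 2357031 to 68773605 unique molecular identifiers (UMIs, 1 per captured transcript), with a median of 4932.5 to 12660 UMIs per cell. Cells were gated by summed UMIs of fixed marker genes into stroma (1029, 241, 2170 and 1068 cells in tdT1, tdT2, WT and TNF-Tg) and leukocytes (214, 181, 2905 and 2108 cells). The stromal marker list (Col1a1, Col1a2, Col3a1, Dcn, Pdgfra, Prrx1) summed to 24673 to 41027 CPM (UMIs of a gene per 1000000 UMIs of the class) in the stroma, whereas the contractile muscle genes (Acta2, Myh11, Tagln, Cnn1, Des, Actg2) summed to 8.28 to 33.6 CPM, with 1 to 4 of the 6 at 0. The study's names for these cells are lymphatic muscle cell (LMC) in the PLVs and vascular smooth muscle cell (VSMC) in the vein, and the names LMC-like and VSMC-like are used here for cells that express the study's marker genes of each. Between them the libraries shared 0 to 5 cell barcodes per pair. The tdT1 library stood apart: 567 of its 1504 cells were of low quality (over 10% mitochondrial UMIs or under 500 genes), and its dissociation-response genes summed to 25222 CPM in the stroma, against 4994 to 9013 CPM in the other 3 libraries. Every count that uses tdT1 is therefore also given without it. UMIs come from the 3′ end of transcripts, so levels are compared between cells and not between genes.

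Leukocytes and stroma of the same suspensions were compared first. The leukocytes of the tdT libraries came through a tdTomato+ sort, and the make-up of the leukocytes differed between libraries, as given below. Of the 10 members, 7 were higher in leukocytes than in stroma and none lower (edgeR quasi-likelihood test with the library as a block over 4 libraries, Benjamini-Hochberg adjusted p under 0.05). Over all 12734 genes tested, 25.7% were higher and 32.3% lower by the same rule. Here and in the contrast of the stromal classes below, 4 libraries left 3 residual degrees of freedom. The p-values of both contrasts therefore rest in large part on a variance shared across genes. The members that differed included 3 of the 4 subunits, and the largest differences were those of Tnfaip3, Nfkbie and Nfkbiz.

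Tnfaip3 was at 916, 58.0, 33.0 and 28.8 CPM in the leukocytes of tdT1, tdT2, WT and TNF-Tg, against 68.5, 3.01, 12.0 and 6.20 CPM in the stroma of the same libraries. Its log2 difference was 2.53 ± 0.42 (SE, adjusted p = 0.00103 by edgeR), higher in leukocytes in 4 of 4 libraries. Within each library the leukocytes were the higher class, yet the groups overlapped across libraries, since the tdT1 stroma was above the leukocytes of tdT2, WT and TNF-Tg.

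Nfkbie was at 56.8, 22.3, 18.3 and 35.2 CPM in the leukocytes of tdT1, tdT2, WT and TNF-Tg, against 4.74, 3.76, 2.69 and 11.1 CPM in the stroma. All 4 leukocyte values lay above all 4 stromal values, and the log2 difference was 2.47 ± 0.30 (SE, adjusted p = 0.000175 by edgeR). Nfkbiz was at 726, 100, 119 and 68.5 CPM in leukocytes and at 221, 8.28, 19.8 and 18.4 CPM in stroma, a log2 difference of 2.16 ± 0.29 (SE, adjusted p = 0.00032 by edgeR). As for Tnfaip3, the tdT1 stroma overlapped the leukocytes of other libraries. Birc3 differed by 1.08 ± 0.19 (SE, adjusted p = 0.00147 by edgeR) and was higher in leukocytes in 4 of 4 libraries.

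Among the subunits, Nfkb1 was higher in leukocytes by 0.84 ± 0.19 on the log2 scale (SE, adjusted p = 0.00542 by edgeR), Nfkb2 by 0.67 ± 0.19 (adjusted p = 0.0153) and Relb by 0.65 ± 0.16 (adjusted p = 0.00842), each in 4 of 4 libraries. Rela, the transactivating subunit of the canonical dimer, differed by -0.08 ± 0.15 (adjusted p = 0.657 by edgeR) and was higher in leukocytes in 2 of 4 libraries. Nfkbia, the best known target of the loop, had a log2 difference of 0.46 ± 0.20 (adjusted p = 0.0813 by edgeR), and Tnip1 one of 0.09 ± 0.23 (adjusted p = 0.768). The Nfkbia difference passed the threshold under 6 other settings, with adjusted p-values of 0.0167 to 0.0386, and in each of these the count of members was 8. Without the library block, the count fell from 7 members to 1, Nfkbie. Without tdT1 it was 6, Nfkb2 having an adjusted p of 0.053.

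**Figure D1:**
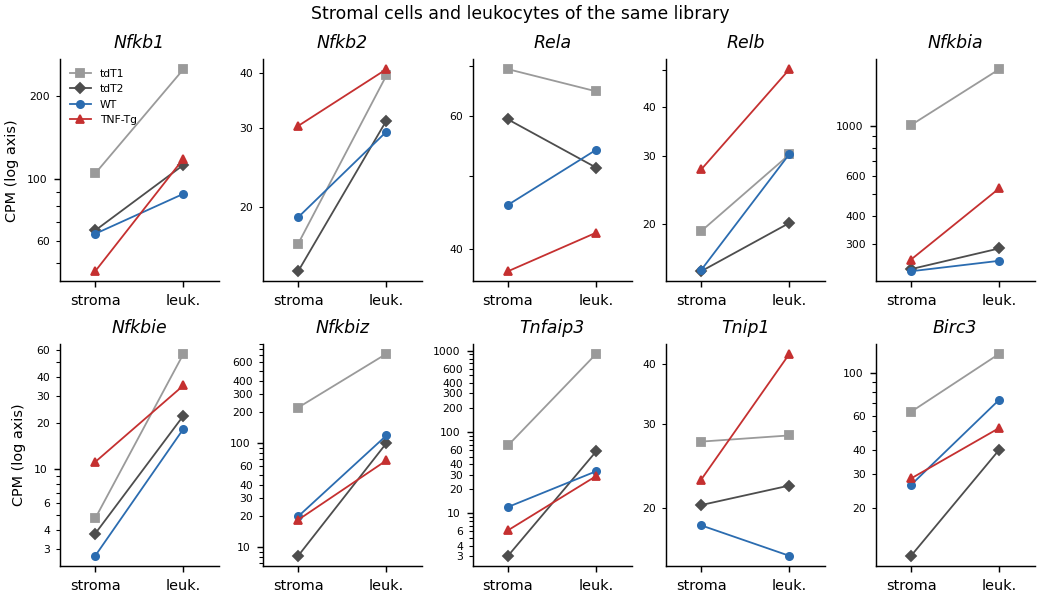
Level of each member in CPM (log axis, a separate axis for each gene) in the stroma and the leukocytes of the 4 libraries. Each point is 1 library and lines join the classes of a library; Nfkbie, Tnfaip3 and Nfkbiz are higher in the leukocytes of all 4 libraries, and Rela in 2 of 4.

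Between the 2 stromal classes, 1 of the 10 members passed the test, a share near that of all genes. Nfkb1 was higher in LMC-like than in VSMC-like cells (edgeR with the library as a block, 4 libraries), against 10.5% of the 10742 genes tested, and no member was lower, against 14.7%. Nfkb1 was at 113, 71.2, 68.1 and 58.7 CPM in the LMC-like cells (tdT1, tdT2, WT and TNF-Tg in turn) and at 75.0, 60.5, 46.8 and 30.04 CPM in the VSMC-like cells. It was higher in LMC-like cells in 4 of 4 libraries, by 0.51 ± 0.13 on the log2 scale (SE, adjusted p = 0.00953 by edgeR), and the ranges overlapped across libraries. The call was lost without WT (adjusted p = 0.0517), with stricter gates (adjusted p = 0.0597) and without the library block (adjusted p = 0.513), and without tdT1 Nfkbiz also passed (0.73, adjusted p = 0.0223 by edgeR). The other 9 members had log2 differences of -0.37 to 0.09 with adjusted p-values of 0.108 to 0.968.

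In the stroma, 3 members were at least 1.5-fold higher in the TNF-Tg library than in the WT library: Nfkb2, Relb and Nfkbie. The same rule was met by 12.6% of the 12615 genes with at least 20 UMIs over both libraries. A single member, Tnfaip3, was at least 1.5-fold lower, against 19.9% of those genes. The non-canonical subunits and 1 cytoplasmic inhibitor were thus the members higher in TNF-Tg stroma, and the canonical subunits were not. The median log2 ratio of TNF-Tg over WT was 0.14 over the 10 members and -0.10 over all genes.

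Nfkbie was at 4.74 CPM in tdT1, 3.76 CPM in tdT2, 2.69 CPM in WT, and 11.1 CPM in the TNF-Tg library. The TNF-Tg library was 4.12-fold above WT (95% interval 3.13 to 5.46) and was the highest of the 4. Nfkb2 was at 16.5, 14.3, 18.9 and 30.4 CPM in the same order, with TNF-Tg 1.61-fold above WT (1.41 to 1.83). Relb, its dimer partner, was at 19.1, 15.1, 15.2 and 27.6 CPM, with TNF-Tg 1.82-fold above WT (1.58 to 2.09).

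For these 3 members the TNF-Tg stroma lay above all 3 libraries without the transgene. Over all genes, 24.3% met this rule, and 35.8% lay below all 3. The 2 members below all 3 were the canonical subunits. Nfkb1 was at 105, 65.5, 63.7 and 46.7 CPM in tdT1, tdT2, WT and TNF-Tg, and the TNF-Tg value was 1.36-fold below WT (1.245 to 1.496). Rela was at 69.3, 59.5, 45.8 and 37.4 CPM, 1.22-fold below WT (1.10 to 1.36).

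Both stayed within the 1.5-fold limit, and the share of all genes below the other 3 libraries was larger than the share of members. When tdT1 was left out, 6 members were above both tdT2 and WT, against 28% of all genes, and 2 were below both, against 40.9%. The 3 members added were Nfkbia, Tnip1 and Birc3, whose TNF-Tg over WT ratios were 1.13, 1.25 and 1.08.

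The remaining inhibitors showed a different picture, in which the libraries without the transgene differed widely among themselves. Tnfaip3 was at 68.5 CPM in tdT1, 3.01 CPM in tdT2, 12.0 CPM in WT, and 6.20 CPM in the TNF-Tg library. The TNF-Tg value was 1.93-fold below WT (1.52 to 2.49) but above tdT2, so the groups with and without the transgene overlapped. Nfkbia was at 1010 CPM in tdT1, 231 CPM in tdT2, 226 CPM in WT, and 255 CPM in the TNF-Tg library, a TNF-Tg over WT ratio of 1.13 (1.08 to 1.17). The spread between the tdT libraries was many times that difference.

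Nfkbiz, at 221, 8.28, 19.8 and 18.4 CPM, and Birc3, at 63.2, 11.3, 26.4 and 28.5 CPM, differed little between WT and TNF-Tg and were highest in tdT1. Tnip1 was at 27.5, 20.3, 18.4 and 23.0 CPM, with the TNF-Tg value between the tdT libraries.

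Nfkb2, Relb, Nfkbie and Tnfaip3 passed the 1.5-fold limit in both stromal classes and Nfkb1 in VSMC-like cells alone, and the difference between the classes was not tested. In LMC-like cells (1395 in WT, 528 in TNF-Tg), Nfkbie was 5.06-fold above WT (3.59 to 7.20), Relb 1.82-fold (1.52 to 2.17) and Nfkb2 1.60-fold (1.35 to 1.89). These were 3 of 10 members higher, against 12.3% of 11994 genes, and Tnfaip3 was the 1 member lower, at 6.72 CPM against 12.0, compared with 14.6% of all genes. In VSMC-like cells (524 in WT, 360 in TNF-Tg), Nfkbie was 2.77-fold above WT (1.44 to 5.56), Relb 2.13-fold (1.55 to 2.94) and Nfkb2 1.69-fold (1.26 to 2.25).

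In VSMC-like cells 12.1% of 10623 genes were higher by that rule and 29% lower. The members lower there were Tnfaip3, at 6.397 CPM against 13.2, and Nfkb1, at 30.04 CPM against 46.8, and Nfkb1 was within the limit when libraries were scaled by TMM factors (log2 ratio -0.47). By CPM, TNF-Tg was the highest of the 4 libraries in either class for each of Nfkb2, Relb and Nfkbie. The same held for 26.4% of all genes in LMC-like and 22.3% in VSMC-like cells. In VSMC-like cells the TNF-Tg intervals of these members overlapped those of tdT1. Nfkbie, for example, was at 8.07 CPM in TNF-Tg (5.40 to 11.6) and 7.34 in tdT1 (9 UMIs, 3.36 to 13.9). In LMC-like cells the tdT2 intervals of Relb and Nfkbie (12 and 4 UMIs) covered the TNF-Tg level, and that of Nfkb2 did not. Nfkb1 and Rela were lowest in TNF-Tg in both classes, as were 28.8% and 37.4% of all genes. Without tdT1, 6 members were above both other libraries and 2 below both in either class, against 31.5% and 33% of genes in LMC-like cells and 26.3% and 44.4% in VSMC-like cells. The stromal cells between the gates (251 in WT, 180 in TNF-Tg) also had Nfkb2, Relb and Nfkbie at least 1.5-fold higher, by 1.54-, 1.57- and 3.04-fold, where 14.5% of 10066 genes were, and Nfkb1 and Tnfaip3 lower, where 23.4% were.

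**Figure D2:**
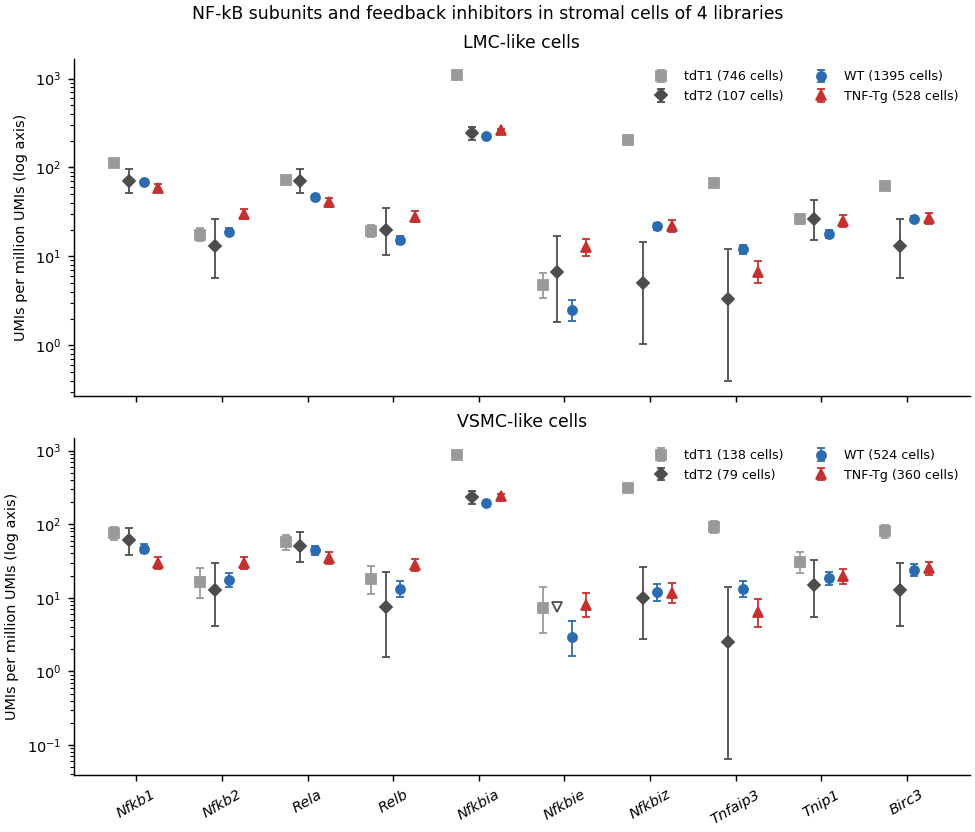
Level of each member in CPM (log axis) in the LMC-like cells (top) and VSMC-like cells (bottom) of the 4 libraries; error bars are exact 95% Poisson intervals of the counts. An open triangle marks 0 UMIs, drawn at the limit of 3 UMIs (Nfkbie in the VSMC-like cells of tdT2). TNF-Tg is the highest library for Nfkb2, Relb and Nfkbie, with intervals that overlap those of tdT1 in VSMC-like cells. For Nfkbia, Nfkbiz, Tnfaip3 and Birc3 the highest library is tdT1.

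RNA of other cells moved with the condition in part of these counts. The 6 leukocyte marker genes summed to 15.9, 21.8, 43.5 and 78.1 CPM in the stroma of tdT1, tdT2, WT and TNF-Tg, against 3092 to 4426 CPM in leukocytes. In the LMC-like cells they summed to 21.9 CPM in WT and 28.1 in TNF-Tg, and the Nfkbie, Relb and Nfkb2 ratios were 5.06, 1.82 and 1.60 there, against 4.12, 1.82 and 1.61 in the whole stroma. In the VSMC-like cells they summed to 59.5, 58.0, 128 and 176 CPM in tdT1, tdT2, WT and TNF-Tg, beside ratios of 2.77, 2.13 and 1.69. The 4 globin genes of red cells summed to 9.87 CPM in LMC-like cells of WT and 608 in those of TNF-Tg, and to 9.90 and 8.90 CPM in VSMC-like cells. The part of leukocyte and red-cell RNA in the member counts was not tested.

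The 2 tdT libraries, labelled as repeats of 1 genotype, differed more than WT and TNF-Tg did for several members. The protocol and the sequencer changed between them, so their difference is not replicate spread alone, and the parts of the mice, the protocol and the sequencer cannot be told apart. In the stroma, 5 of 10 members were at least 1.5-fold higher in tdT1 than in tdT2, against 19.3% of 11286 genes: Nfkbiz 26.6-fold, Tnfaip3 22.8-fold, Birc3 5.59-fold, Nfkbia 4.37-fold and Nfkb1 1.60-fold. The other 5 members, among them Nfkb2, Relb and Nfkbie, differed by 1.15- to 1.36-fold. After low-quality cells were removed, the first 4 ratios were 24.4, 21.9, 4.53 and 4.42. In LMC-like cells 5 of 10 members were at least 1.5-fold higher in tdT1, against 22.9% of 10754 genes, and in VSMC-like cells 6, against 22.1% of 7264. In leukocytes, 7 of 10 members were, against 26.9% of 8510 genes. The 6 in VSMC-like cells included Relb, 2.37-fold higher in tdT1 (22 UMIs in tdT1 and 3 in tdT2), and Tnip1, 2.05-fold higher. Relb was thus not stable between the tdT libraries in that class.

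The genes of the dissociation-response list, immediate-early and heat-shock genes that enzymatic digestion is known to induce, summed to 25222 CPM in tdT1 stroma and to 9013, 5919 and 4994 CPM in that of tdT2, WT and TNF-Tg. The glucocorticoid-response list summed to 3595, 1233, 3226 and 1561 CPM in the same order. Between WT and TNF-Tg stroma, 9 of its 10 genes were at least 1.5-fold lower in TNF-Tg, against 19.9% of all genes. Glucocorticoids are known to induce Nfkbia in many cells, and the part of either response in the member counts was not tested.

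**Figure D3:**
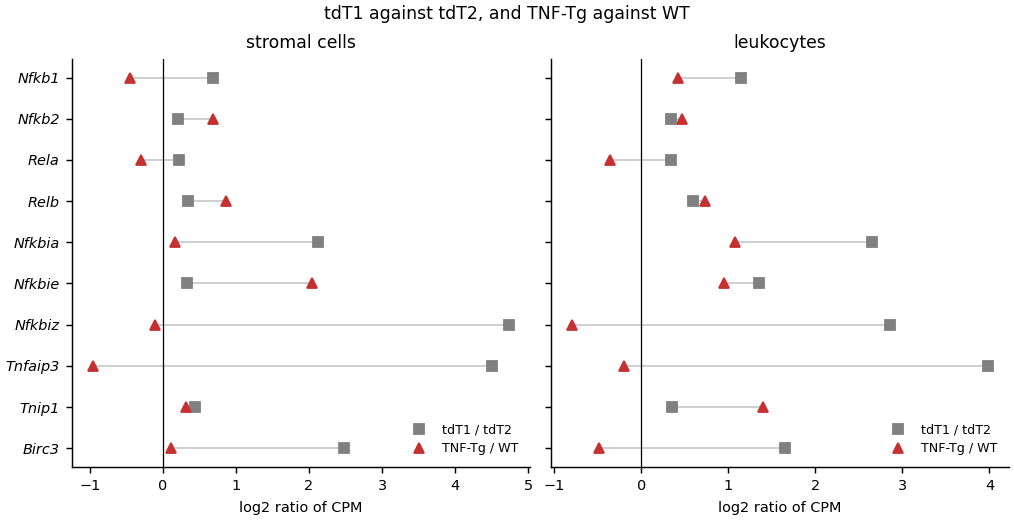
Log2 ratio of tdT1 over tdT2 (libraries of 1 genotype, made with different sort settings and sequencers) and of TNF-Tg over WT for each member in the stroma (left) and the leukocytes (right), on the log2 CPM scale; lines join both ratios of a gene. In the stroma Nfkbiz, Tnfaip3, Birc3 and Nfkbia differ more between tdT1 and tdT2, by 4.37- to 26.6-fold, than between TNF-Tg and WT, and Nfkbie, Relb and Nfkb2 differ more between TNF-Tg and WT.

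In the pooled leukocytes, 4 members were at least 1.5-fold higher in TNF-Tg than in WT, against 14.7% of 12979 genes, and 1 was lower, against 26.2%. Nfkbia, the inhibitor whose loss releases the canonical dimer, was at 1790, 286, 252 and 529 CPM in tdT1, tdT2, WT and TNF-Tg, 2.10-fold above WT (2.04 to 2.16). Tnip1 was at 28.4, 22.3, 15.9 and 41.96 CPM, 2.63-fold above WT (2.37 to 2.93). Nfkbie was at 56.8, 22.3, 18.3 and 35.2 CPM, 1.92-fold above WT (1.73 to 2.14).

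Relb was at 30.2, 20.1, 30.3 and 50.3 CPM, 1.66-fold above WT (1.52 to 1.81). Nfkbiz was the lower member, at 68.5 CPM in TNF-Tg against 119 in WT. For Nfkb2, Relb and Tnip1 the TNF-Tg leukocytes lay above all 3 other libraries, as did 21.1% of all genes, and for Rela, Nfkbiz and Tnfaip3 below all 3, as did 29.3%. Nfkbia and Nfkbie were highest in tdT1, and without tdT1 the counts were 6 above, against 27.8%, and 3 below, against 36.7%.

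The 2 leukocyte pools did not hold the same cells. Lyve1+ macrophage-like cells, a resident type, made up 52.0% of WT leukocytes and 12.5% of TNF-Tg leukocytes, and inflammatory monocyte-like cells 2.89% and 29.98%. The tdT leukocytes, sorted as tdTomato+, were other mixtures again. In tdT1 and tdT2, 7.48% and 26.0% were Lyve1+ macrophage-like, and 10.3% and 3.87% were B cell-like, against 0.0688% in WT. The rankings of pooled leukocytes over all libraries thus compared unlike mixtures. When the TNF-Tg classes were weighted as in WT over 7 classes, the Nfkbia ratio was 1.21, that of Nfkbie 1.60, Tnip1 1.52 and Relb 1.45. At that make-up 2 members were at least 1.5-fold higher, Nfkbie and Tnip1, and 2 were lower, Tnfaip3 (0.61) and Birc3 (0.65). The shares of all genes at that make-up are not given here, so these counts cannot be set against a background. The 7 classes held 86.3% of WT and 88.8% of TNF-Tg leukocyte UMIs. They included the cells of no single gate (9.52% and 21.6%), a mixture that may itself differ between the libraries. They left out Ear2+ phagocyte-like cells (11.1% and 0.786%) and patrolling monocyte-like cells (0.170% and 8.12%), so the make-up was matched only in part. The classes are therefore described separately.

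**Figure D4:**
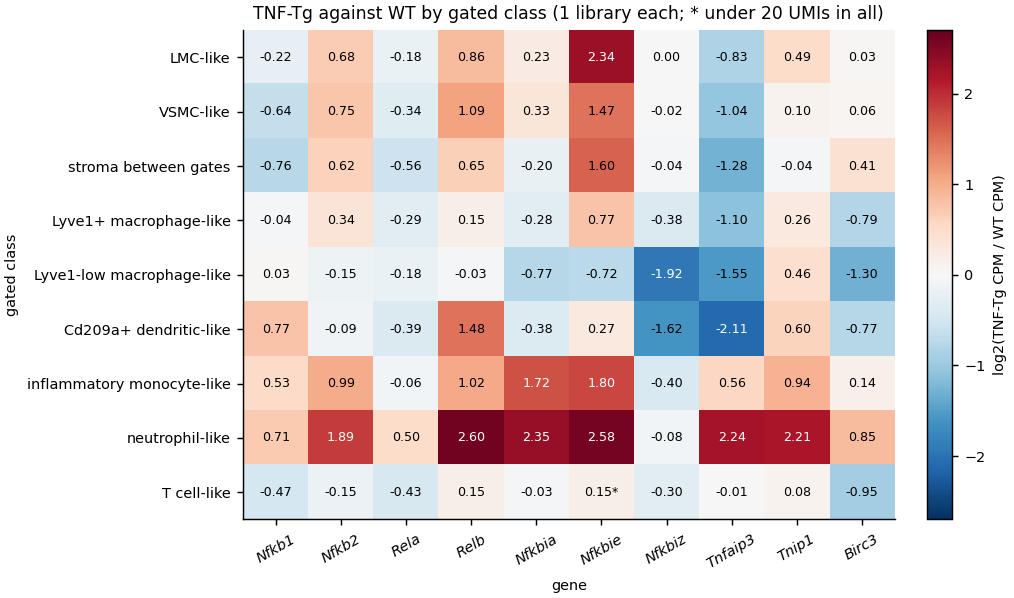
Log2 ratio of TNF-Tg over WT for each member (columns) in each gated class (rows), as colour and number; an asterisk marks fewer than 20 UMIs over both libraries (Nfkbie in T cell-like cells). Neutrophil-like cells are higher in TNF-Tg for 8 members by at least 1.5-fold, and Lyve1-low macrophage-like cells lower for 5.

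Neutrophil-like cells showed the widest difference, with 8 of 10 members at least 1.5-fold higher in TNF-Tg and none lower, against 23.1% and 17.6% of 5267 genes. The median log2 ratio of the members was 2.05, and that of all genes 0.03. There were 330 such cells in WT, 219 in TNF-Tg, 30 in tdT2 and 9 in tdT1. The neutrophil marker genes summed to 261897 CPM in WT and 256434 in TNF-Tg.

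Nfkbia was at 2067 CPM in the neutrophil-like cells of tdT1 (67 UMIs of 9 cells), 542 CPM in tdT2, 421 CPM in WT, and 2142 CPM in the TNF-Tg library. The TNF-Tg value was 5.09-fold above WT (4.62 to 5.62), and the 9 cells of tdT1 reached the same level without the transgene. Relb was at 18.3 CPM in WT and 111 in TNF-Tg, 6.06-fold higher (3.801 to 10.04), and at 14.3 CPM in tdT2 (1 UMI). In tdT1 Relb was at 30.9 CPM (1 UMI, 0.781 to 172), an interval that covers the TNF-Tg level. Nfkbie was at 8.75 CPM in WT and 52.4 in TNF-Tg, 5.99-fold higher (3.04 to 12.9). It had 0 UMIs in tdT2, with an interval up to 52.7 CPM that covers the TNF-Tg level. In tdT1 Nfkbie was at 61.7 CPM (2 UMIs, 7.47 to 223), above TNF-Tg by CPM. TNF-Tg was thus not set apart from the libraries without the transgene for Nfkbie.

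Tnfaip3 was at 25.5 CPM in WT neutrophil-like cells and 121 in those of TNF-Tg, 4.74-fold higher (3.15 to 7.30), where the stroma had shown the opposite order. It was at 85.6 CPM in tdT2 (6 UMIs, 31.4 to 186) and 463 CPM in tdT1 (15 UMIs), so tdT2 overlapped TNF-Tg in its interval and tdT1 lay above it. Tnip1 was at 27.8 and 129 CPM (4.64-fold) and Nfkb2 at 20.7 and 76.8 CPM (3.71-fold, 2.32 to 6.11). The tdT2 cells had 28.5 CPM of Tnip1 (2 UMIs, 3.46 to 103) and 14.3 of Nfkb2 (1 UMI, 0.361 to 79.5). Both values were near WT, but the Nfkb2 interval also covered the TNF-Tg level. The tdT1 cells had 30.9 and 92.6 CPM on 1 and 3 UMIs, with intervals that covered the TNF-Tg levels. Birc3 was 1.80-fold higher, and Nfkb1 1.64-fold, the latter within the limit under median-of-ratios scaling (log2 ratio 0.53). In tdT1 Birc3 was at 247 CPM (8 UMIs, 107 to 486), above the 189 CPM of TNF-Tg, and in tdT2 at 42.8 CPM (3 UMIs). Rela, at 42.2 and 59.7 CPM, and Nfkbiz, at 290 and 274 CPM, were within the 1.5-fold limit.

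The difference in Nfkbia was spread over the cells. Per 10000 UMIs of a cell, the median neutrophil-like cell had 2.47 Nfkbia UMIs in WT (quartiles 0 and 6.08) and 17.6 in TNF-Tg (quartiles 7.55 and 35.3), at a median depth of 3568.5 and 3213 UMIs. The decile of cells with the most Nfkbia held 43.3% of its UMIs in WT and 28.3% in TNF-Tg. In LMC-like cells the medians were 1.49 in WT and 1.74 in TNF-Tg. In Lyve1+ macrophage-like cells they were 1.77 and 1.10.

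**Figure D5:**
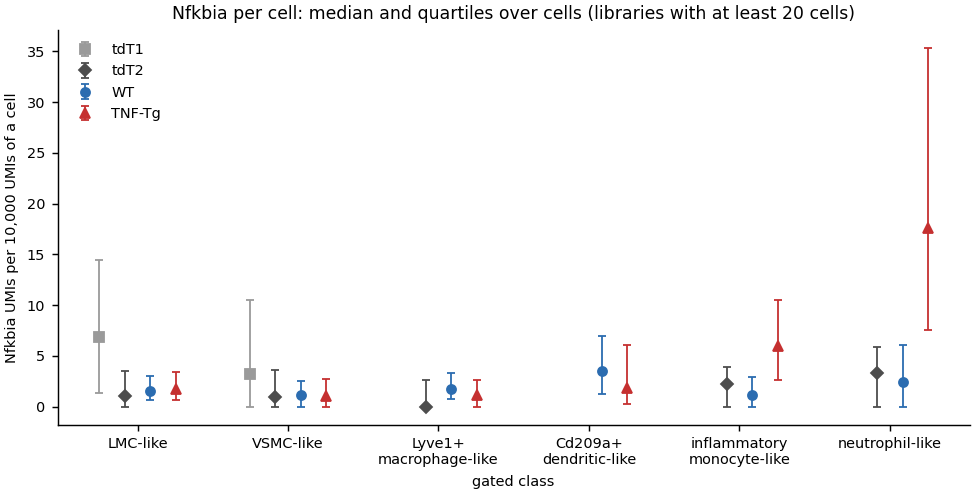
Nfkbia UMIs per 10000 UMIs of a cell, as median (points) and quartiles (bars) over the cells of each class, for libraries with at least 20 cells of the class. Neutrophil-like and inflammatory monocyte-like cells of TNF-Tg, at medians of 17.6 and 6.01, lie above those of WT, at 2.47 and 1.14, and the LMC-like medians of WT and TNF-Tg lie close together.

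Inflammatory monocyte-like cells (84 in WT, 632 in TNF-Tg) had 5 members at least 1.5-fold higher in TNF-Tg and none lower, against 15.4% and 14.6% of 9422 genes. Nfkbia was at 207 CPM in WT and 683 in TNF-Tg, 3.30-fold higher (2.85 to 3.83). Nfkbie was 3.49-fold higher (1.92 to 7.07), at 11.9 and 41.5 CPM. The 23 such cells of tdT2, without the transgene, had 40.3 CPM of Nfkbie (7 UMIs, 16.2 to 83.0), as high as TNF-Tg, and 253 CPM of Nfkbia (184 to 340), near WT. The 8 such cells of tdT1 had 545 CPM of Nfkbia (52 UMIs, 407 to 715), an interval that covers the TNF-Tg level. Relb, Nfkb2 and Tnip1 were 2.03-, 1.99- and 1.92-fold higher than in WT. The tdT2 cells had 46.1 CPM of Nfkb2 (8 UMIs, 19.9 to 90.7), as high as TNF-Tg. Relb was lower by CPM than in TNF-Tg in both tdT libraries, on few UMIs and wide intervals. It was at 21.0 CPM in tdT1 (2 UMIs, 2.54 to 75.7) and 17.3 in tdT2 (3 UMIs, 3.56 to 50.5). All 5 members higher in TNF-Tg than in WT were also among those higher in neutrophil-like cells.

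Macrophages and dendritic cells showed another order. In Lyve1+ macrophage-like cells (1510 in WT, 264 in TNF-Tg), Nfkbie was the only member at least 1.5-fold higher, at 18.1 CPM in WT and 30.9 in TNF-Tg (1.705-fold, 1.35 to 2.14), against 15.8% of 11235 genes. In tdT2 it was at 35.8 CPM (6 UMIs of 47 cells, 13.1 to 77.8), so TNF-Tg did not stand above the libraries without the transgene. Tnfaip3, at 29.2 and 13.6 CPM, and Birc3, at 89.7 and 51.8 CPM, were lower, against 15.5%. Nfkbia was at 224 CPM in WT and 185 in TNF-Tg, a ratio of 0.83 (0.76 to 0.90).

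In Lyve1-low macrophage-like cells (153 and 103), no member was at least 1.5-fold higher, against 19.5% of 8399 genes, and 5 were lower, against 17.7%. Nfkbiz was at 102 CPM in WT and 27.1 in TNF-Tg, a ratio of 0.26 (0.19 to 0.37). Tnfaip3 had a ratio of 0.34, Birc3 of 0.41, Nfkbia of 0.59 and Nfkbie of 0.61, the last with an interval of 0.36 to 1.01.

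In Cd209a+ dendritic-like cells (171 and 104), the subunits Relb (27.1 and 75.3 CPM, 2.78-fold, 2.05 to 3.798) and Nfkb1 (108 and 184 CPM, 1.71-fold, 1.44 to 2.03) and the adaptor Tnip1 (1.52-fold, 0.85 to 2.704) were higher in TNF-Tg, against 16% of 8494 genes. Tnfaip3 (0.23), Nfkbiz (0.33) and Birc3 (0.59) were lower, against 24.8%. The 18 such cells of tdT1 and 10 of tdT2, without the transgene, had 338 and 216 CPM of Nfkb1 (85 and 15 UMIs), both above TNF-Tg. Their Tnip1 levels, 23.9 and 28.9 CPM (6 and 2 UMIs), were also above the 16.6 CPM of TNF-Tg. Their Relb levels, 43.8 and 57.7 CPM (11 and 4 UMIs), were below TNF-Tg by CPM. The Relb intervals, 21.9 to 78.3 and 15.7 to 148 CPM, both covered the 75.3 CPM of TNF-Tg. The tdT2 interval of Nfkb1 and both tdT intervals of Tnip1 likewise covered the TNF-Tg level. In T cell-like cells (67 and 84), 9 members passed the filter on UMIs. None was higher, against 7.15% of 5873 genes, and Birc3 was lower (0.52, 0.18 to 1.35), against 23.1%, on an interval that spans no difference.

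The order of Nfkbia levels over the gated classes with at least 20 cells differed between the libraries. In WT it was highest in Cd209a+ dendritic-like cells, at 466 CPM (95% Poisson interval 440 to 492), and neutrophil-like cells, at 421 CPM (386 to 458), whose intervals overlap. Lyve1-low macrophage-like cells followed at 256 CPM. Ear2+ phagocyte-like, Lyve1+ macrophage-like, LMC-like, T cell-like and inflammatory monocyte-like cells lay between 207 and 226 CPM with overlapping intervals, and VSMC-like, cDC1-like and mast cell-like cells were lower by CPM, at 193, 112 and 57.2 CPM. The VSMC-like interval (181 to 205) overlapped that of T cell-like cells (178 to 251). Stromal cells between the gates, which are not ranked here, had 291 CPM in WT (274 to 310).

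In TNF-Tg the order was neutrophil-like cells (2142 CPM, 2043 to 2244), basophil-like cells (1565, 1397 to 1749), patrolling monocyte-like cells (926, 882 to 972) and inflammatory monocyte-like cells (683, 664 to 703), no 2 of which had overlapping intervals. Cd209a+ dendritic-like cells had 358 CPM, LMC-like cells 261 and VSMC-like cells 243, the last 2 with overlapping intervals, followed by NK cell-like and T cell-like cells at 213 and 208 CPM. Lyve1+ and Lyve1-low macrophage-like cells were the lowest, at 185 and 150 CPM. In TNF-Tg, the stroma thus had a higher Nfkbia level in CPM than the macrophages and less than every granulocyte and monocyte class with 20 cells.

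Neutrophil-like and macrophage-like cells (Lyve1+ and Lyve1-low together) were compared over the 3 libraries with at least 10 cells of each, tdT2, WT and TNF-Tg. Of the 10 members, 6 were higher in neutrophil-like cells and none lower (edgeR with the library as a block), against 22.2% and 32.5% of 7502 genes. Nfkbia was at 542, 421 and 2142 CPM in the neutrophil-like cells of tdT2, WT and TNF-Tg and at 149, 227 and 173 CPM in their macrophage-like cells. The ranges did not overlap, and the log2 difference was 2.77 ± 0.48 (SE, adjusted p = 5.41e-08 by edgeR), higher in 3 of 3 libraries. By CPM the difference was widest in TNF-Tg and smallest in WT. The 3 libraries left 2 residual degrees of freedom, so the p-values of this contrast rest largely on a variance shared across genes. They say little of how a single member varies between libraries.

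The log2 difference was 2.43 for Tnip1, 2.26 for Tnfaip3, 1.64 for Birc3 and 1.60 for Nfkbiz, with adjusted p-values of 1.06e-06 to 0.000827 by edgeR, and each was higher by CPM in 2 of 3 libraries. Relb differed by 1.13 ± 0.47 (adjusted p = 0.031 by edgeR) but was higher by CPM in TNF-Tg alone, at 111 against 36.8. Without TNF-Tg its difference was -0.084 (adjusted p = 0.901), and Tnfaip3 then had an adjusted p of 0.0574, which left 4 members. Scaled by total UMIs in place of TMM factors, 5 members passed and Relb did not (0.31, adjusted p = 0.492). DESeq2 called 4 members.

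The wider pathway was described by gene lists. These and the dissociation-response and glucocorticoid-response lists were chosen with earlier results of these data known. The study had itself reported Ccl19 as higher and Zbtb16 and Klf9 as lower in TNF-Tg LMCs and VSMCs, and these genes are on the lists. The list counts are therefore a description and not an independent test. Of the 10 TNF receptors and adaptors, 3 were at least 1.5-fold higher in TNF-Tg LMC-like cells and none lower, none of the 9 measured in VSMC-like cells passed in either direction, and 4 were higher and 1 lower in leukocytes. Over all genes, 12.3% were higher and 14.6% lower in LMC-like cells, 12.1% and 29% in VSMC-like cells and 14.7% and 26.2% in leukocytes. Tnfrsf1a, the receptor for soluble TNF, was at 89.3 CPM in WT and 145 in TNF-Tg LMC-like cells and at 118 and 162 CPM in VSMC-like cells, where Birc2 had 30.1 and 21.4 CPM. Traf2 was at 5.73 and 8.96 CPM in LMC-like cells. In leukocytes Traf1, an inducible adaptor, was at 14.9 CPM in WT and 46.1 in TNF-Tg, and Tnfrsf1b, the other TNF receptor, at 68.8 and 108 CPM. Traf1 was at 79.6 CPM in tdT1 leukocytes, above TNF-Tg, and at 32.4 in tdT2.

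Of the 8 IKK and upstream kinase genes, which act on the inhibitors, none was at least 1.5-fold higher in LMC-like cells, VSMC-like cells or pooled leukocytes. There was 1 lower in LMC-like cells, 4 of the 7 measured were lower in VSMC-like cells (median log2 ratio -0.73, all genes -0.20) and none in leukocytes. The shares of all genes lower in these classes were 14.6%, 29% and 26.2%. In neutrophil-like cells 2 of the 4 measured were higher and none lower, against 23.1% and 17.6% of all genes. In inflammatory monocyte-like and in Lyve1+ macrophage-like cells 2 of 8 were higher, against 15.4% and 15.8% of all genes. Ikbkb, a catalytic subunit, was at 29.4 CPM in WT and 85.3 in TNF-Tg neutrophil-like cells. It was at 27.7 and 13.1 CPM in VSMC-like cells, where tdT2 had 12.6 CPM, and Ikbkg, the regulatory subunit, at 8.05 and 4.76 CPM in LMC-like cells. Tab2 was at 55.5 and 40.7 CPM in LMC-like cells, 43.3 and 24.8 in VSMC-like cells and 113 and 82.7 in leukocytes, and Tab1 at 4.51 and 6.07 CPM in leukocytes.

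Of 8 ubiquitin-editing genes, none was at least 1.5-fold higher in the 3 classes, and 2 were lower in VSMC-like cells, where 29% of all genes were. In neutrophil-like cells 3 were higher and 1 lower, against 23.1% and 17.6% of all genes. Cyld, a deubiquitinase, was at 33.2 CPM in WT and 16.7 in TNF-Tg VSMC-like cells, with 22.0 CPM in tdT1, and Rbck1 at 38.8 and 48.7 CPM. Tnip2 was at 17.4 and 13.4 CPM in LMC-like cells and at 35.3 and 23.8 CPM in leukocytes. Zc3h12a, at 12.7 and 16.4 CPM in LMC-like cells, and Otulin, at 83.7 and 124 CPM in leukocytes, were within the limit.

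Other subunits and inhibitors had these counts: 4 of 7 measured in LMC-like cells, 3 of 7 in VSMC-like cells and 3 of 9 in leukocytes were at least 1.5-fold higher and none lower, with median log2 ratios of 0.61, 0.48 and 0.31. The shares of all genes higher in these classes were 12.3%, 12.1% and 14.7%, and those lower 14.6%, 29% and 26.2%. Bcl3, an atypical nuclear IkB protein, was at 17.2 CPM in WT and 48.0 in TNF-Tg LMC-like cells, 2.79-fold higher (2.41 to 3.24), and at 13.2 and 34.8 CPM in VSMC-like cells. Commd1, which promotes the turnover of Rela, was at 81.8 and 141 CPM in LMC-like cells, 72.6 and 137 in VSMC-like cells and 86.0 and 134 in leukocytes. The TNF-Tg level was the highest of the 4 libraries for Bcl3 in LMC-like and VSMC-like cells and for Commd1 in these and in leukocytes. Nfkbib, a further cytoplasmic inhibitor, was at 24.9 and 43.8 CPM in leukocytes, and at 54.9 in those of tdT1.

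Known NF-kB targets were at least 1.5-fold higher in TNF-Tg for 13 of the 24 measured of 30 in LMC-like cells, 14 of 20 in VSMC-like cells and 12 of 25 in leukocytes, and lower for 4, 2 and 3. Of all genes, 12.3%, 12.1% and 14.7% were higher and 14.6%, 29% and 26.2% lower. Their median log2 ratios were 1.11, 1.48 and 0.56, and those of all genes -0.02, -0.20 and -0.14. Saa3, an acute-phase protein, was at 1.20 CPM in WT and 331 in TNF-Tg LMC-like cells and at 3.88 and 94.3 CPM in VSMC-like cells. Ccl19, a chemokine for T cells and dendritic cells, was at 25.03 and 239 CPM in LMC-like cells, and Ccl7, a monocyte chemokine, at 16.7 and 589 CPM in VSMC-like cells. For these 3 genes TNF-Tg was above all other libraries in the classes named. In leukocytes Vcam1 was at 39.5 CPM in WT and 5.47 in TNF-Tg and Cxcl13 at 422 and 58.5 CPM. The tdT leukocytes had 24.7 (tdT1) and 1.12 (tdT2) CPM of Vcam1 and 3.70 and 56.9 CPM of Cxcl13, so TNF-Tg lay within the range of the libraries without the transgene for both genes and close to tdT2 for Cxcl13. By single class, 5 of 14 measured targets were higher and 4 lower in neutrophil-like cells (median log2 ratio 0.10), 11 and 4 of 19 in inflammatory monocyte-like cells (0.78) and 10 and 6 of 22 in Lyve1+ macrophage-like cells (0.58). Of all genes, 23.1%, 15.4% and 15.8% were higher in these classes and 17.6%, 14.6% and 15.5% lower.

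The remaining lists track handling and hormone state. Of 15 dissociation-response genes, 1 was higher and 3 lower in TNF-Tg LMC-like cells, 1 and 6 in VSMC-like cells and 1 and 8 in leukocytes, where 14.6%, 29% and 26.2% of all genes were lower. The shares of all genes higher were 12.3%, 12.1% and 14.7%. Socs3 was at 115 CPM in WT and 272 in TNF-Tg LMC-like cells and Fosb at 187 and 98.7 CPM. In VSMC-like cells Hspa1a was at 58.2 and 23.1 CPM and Fosb at 176 and 89.8 CPM. In leukocytes Nr4a1 was at 34.4 and 146 CPM and Egr1 at 554 and 159 CPM. The tdT1 and tdT2 leukocytes had 566 and 193 CPM of Nr4a1, both above TNF-Tg, and 2553 and 648 CPM of Egr1. Socs3 was likewise higher in the LMC-like cells of tdT1 (524 CPM) than in those of TNF-Tg.

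Of 10 glucocorticoid-response genes, 9 were lower in LMC-like cells, 9 in VSMC-like cells and 7 in leukocytes, against the same 14.6%, 29% and 26.2% of all genes. Zbtb16 was at 176 CPM in WT and 20.9 in TNF-Tg LMC-like cells and at 120 and 9.18 CPM in VSMC-like cells, and Tsc22d3 at 175 and 39.9 CPM and at 291 and 27.0 CPM. The tdT2 levels, 26.5 and 12.6 CPM of Zbtb16 and 44.7 and 55.4 CPM of Tsc22d3 in LMC-like and VSMC-like cells, lay nearer to TNF-Tg than to WT, and those of tdT1 were 95.3 and 55.5 CPM and 139 and 183 CPM. In leukocytes Fkbp5 was at 107 and 9.94 CPM and Klf9 at 97.6 and 11.6 CPM, while tdT1 and tdT2 had 17.9 and 20.1 CPM of Fkbp5 and 72.2 and 23.4 CPM of Klf9. For these 4 genes the libraries without the transgene thus differed among themselves, with WT the highest and TNF-Tg the lowest of the 4.

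The genes whose levels followed a member most closely were ranked by Pearson's r of log2 CPM over the 36 sums of a class in a library, among 13053 genes, as a description over points that share libraries. For Nfkbia they were Midn (r = 0.73), Hk2 (0.73), Cxcl10 (0.71), Gadd45b (0.70) and Ier2 (0.70). Without the tdT1 sums these values were 0.53 to 0.65 over 31 sums. For Nfkb2 the closest gene was another member, Nfkbie (r = 0.71, and 0.74 without tdT1), followed by Gm11491 (0.67), Pou2f2 (0.66), Plagl2 (0.66) and Msn (0.65).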

How the data were processed

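The 4 libraries were 10x 3′ single-cell preparations of popliteal lymphatic vessels and the saphenous vein. The authors aligned reads to mm10 with Cell Ranger and deposited filtered matrices of raw UMI counts per gene and cell; the labels name Cell Ranger 3.1.0 and Seurat 4.0.3, and the deposited matrix headers name Cell Ranger 3.1.0 for tdT1 (31053 genes) and 6.0.1 for the others (32287 genes). The 30406 shared genes were used. No cell was removed in the main values; 0.220% to 2.51% of cells per library were called doublets, and since under 0.5% were marked in the tdT libraries the caller may not have worked there.

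Cells were gated on UMIs of fixed marker lists per 10000. Stroma had at least 50 stromal and under 5 leukocyte UMIs, and leukocytes at least 10 leukocyte and under 20 stromal UMIs. Cells with at least 20 endothelial UMIs were put in neither class. LMC-like and VSMC-like cells were stroma with a ratio of at least 2 between their lists. Near the cut between these 2 lists, 94 of 528 LMC-like and 111 of 360 VSMC-like cells of TNF-Tg had a ratio under 4. UMIs were summed per class and library. With 1 library per condition, TNF-Tg and WT were compared as CPM with exact Poisson intervals and ratios with exact conditional binomial intervals (95%), and called at 1.5-fold among genes with at least 20 UMIs; intervals and floors cover counting error only. Class contrasts used edgeR 4.0.16 (quasi-likelihood, TMM factors, library as a block, Benjamini-Hochberg over all genes) and were tested on simulated data, and DESeq2 1.42.0 was an alternative. The classes of a library come from the same suspension, and their deviations correlated by 0.12 to 0.58 (leukocytes and stroma), 0.31 to 0.73 (LMC-like and VSMC-like) and 0.01 to 0.11 (neutrophil-like and macrophage-like). That libraries were separate pools of animals rests on the study's description. Genes outside the members were named as the 2 with the largest differences of each list in LMC-like cells, VSMC-like cells and leukocytes, and likeness was ranked for Nfkbia and Nfkb2 among genes reaching 10 CPM. Other settings were other normalizations, filters, folds, gates, cell filters, thinning to 3000 UMIs per cell and leaving out libraries. Members and lists were chosen with earlier results of these data known. Promoter sequences are from RefSeq (GRCm38.p6).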

Additional observations from a re-analysis of the deposited data

Results flagged for a closer look

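For 5 members the TNF-Tg library lay at least 1.5-fold above WT in 1 class and at least 1.5-fold below it in another. The share of all genes that met this rule is not given here, so the count cannot be read as a trait of the members. Within single classes, 7.15% to 23.1% of all genes were higher and 14.6% to 29% lower. Nfkb1 had a log2 ratio of TNF-Tg over WT of 0.77 in Cd209a+ dendritic-like cells and -0.64 in VSMC-like cells. Nfkbia had 2.35 in neutrophil-like cells and -0.77 in Lyve1-low macrophage-like cells, and Nfkbie had 2.58 and -0.72 in the same classes. Tnfaip3 had 2.24 in neutrophil-like cells and -2.11 in Cd209a+ dendritic-like cells. Birc3 had 0.85 in neutrophil-like cells and -1.30 in Lyve1-low macrophage-like cells. The Nfkbie interval in Lyve1-low macrophage-like cells spans no difference, and Nfkb1 in VSMC-like cells was within the limit under TMM scaling. By CPM, neutrophil-like cells of tdT1 lay above TNF-Tg for Nfkbie, Tnfaip3 and Birc3, on few UMIs. Cd209a+ dendritic-like cells of tdT1 and tdT2 lay above TNF-Tg for Nfkb1. With 1 library per condition, these differences between classes were not tested, and each pair comes from the same WT and TNF-Tg suspensions.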

How the results depend on the processing

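Without the replicate block, that is without pairing the classes of a library, the count of members that differed was 1 in place of 7 for leukocytes against stroma and 0 in place of 1 for LMC-like against VSMC-like cells; without the block no other count moved by over 1.5 times. Leaving out each library in turn gave 0 to 2 members for LMC-like against VSMC-like cells, and stricter gates gave 0. With a 2-fold limit, 1 member was higher and 0 lower in TNF-Tg stroma, and 2 were higher and 0 lower in TNF-Tg leukocytes. Thinning cells to 3000 UMIs gave 2 lower in the stroma. At the WT make-up 2 were higher and 2 lower in leukocytes, and the mean over cells gave 0 lower. The shares of all genes under these settings are not given here. Without tdT replicate 1, 6 members in place of 3 lay above every other library, in the stroma and in the leukocytes alike. The values that changed sign were Relb in neutrophil-like against macrophage-like cells without TNF-Tg replicate 1 (leaving out each library in turn gave -0.084 to 2.16), and, after thinning, Nfkbie in VSMC-like cells (-0.22, from 5 UMIs in WT and 3 in TNF-Tg) and Nfkb2 in stroma between the gates (-0.14). Thinning is 1 random draw that leaves few UMIs: Relb in LMC-like cells then had a log2 ratio of 0.06 (-0.61 to 0.70), and 0.70 as the mean over cells. Of the member ratios, 68 of 110 moved by less than their counting interval after thinning, 2 of 10 at the WT make-up and 633 of 660 under the other settings, and of 349 other values of the class tests 319 kept their direction and side of the threshold; the cause of the rest was not tested.

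Scaling by TMM or median-of-ratios factors moved all log2 ratios by 0.17 and 0.20 in VSMC-like cells, 0.19 and 0.17 in T cell-like cells, -0.12 and -0.18 in neutrophil-like cells and 0.09 and 0.12 in leukocytes. Depth limits the tdT2 library, the T cell-like cells and Nfkbie in VSMC-like cells.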

Other observations

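Some classes had too few cells in 1 library for a ratio. Patrolling monocyte-like cells of TNF-Tg (219 cells) had 926 CPM of Nfkbia, 153 of Nfkbiz, 112 of Birc3 and 51.1 of Tnfaip3, and WT had 9 such cells. Basophil-like cells of TNF-Tg (48 cells) had 1565 CPM of Nfkbia and 185 of Tnfaip3, and WT had 1 such cell. Mast cell-like cells of WT (54 cells) had 272 CPM of Tnfaip3 (95% Poisson interval 164 to 425, from 19 UMIs), the highest of the WT classes with at least 20 cells, and 57.2 CPM of Nfkbia (4 UMIs). Ear2+ phagocyte-like cells of WT (187 cells) had 226 CPM of Nfkbia and 40.6 of Tnfaip3, and TNF-Tg had 9 such cells.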
